A study of Ovis aries with 8 samples.

Results

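FCER1G and CD3E are leukocyte genes, the first a mark of myeloid cells and the second of T cells, and their signal was followed in the wall of the fetal sheep carotid artery. Every non-control probe of the ovine array that the files name FCER1G or CD3E was taken, which gave 4 of 15008 probes, with 2 for each gene, and 2 of the 828 genes with a name there. Both genes were selected on measured values of these arrays, namely their log2 difference between hypoxia and normoxia, so those differences are given as a description, without a test.

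The 8 arrays each held total RNA of the carotid artery of 1 fetus, collected at gestation day 140. In the normoxia group the ewes of 4 fetuses stayed at 300 m. In the hypoxia group the ewes of 4 fetuses lived at 3801 m from gestation day 30 to day 135, and the titles call this 110 days of hypoxia. The labels name no genotype, drug or sorted cell population in either group, and the samples are whole artery, so fewer leukocytes and less RNA per leukocyte cannot be told apart. They distinguish the fetuses of a group by a number alone, and every error given here is derived from these 8 arrays.

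FCER1G encodes the common gamma chain of the Fc receptors, a short transmembrane adaptor whose cytoplasmic tail carries an activation motif that recruits the kinase SYK. Macrophages, monocytes, mast cells, basophils, neutrophils and natural killer cells use it to carry signals from receptors for IgG and IgE and from several lectin receptors. CD3E encodes the epsilon chain of CD3, which is required to assemble and signal through every T cell receptor and is the usual pan-T-cell marker. Artery walls are seeded with macrophages before birth, mainly in the adventitia, while T cells are sparse in a healthy vessel.

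FCER1G was readily measured and CD3E barely. Levels are the log2 of the background-subtracted spot signal minus the 75th percentile of that signal over the probes of the same array, so that 0 marks a probe as bright as that percentile. Both FCER1G probes were well above background, the scanner software's own flag, on all 8 arrays. The brighter CD3E probe carried that flag on 6 arrays and the dimmer one on 2. A probe was kept for comparison where it had the flag on at least 4 arrays, which 3 of the 4 probes passed. The levels of different probes are not compared with each other, because probes differ in how strongly they bind.

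The brighter FCER1G probe, A_70_P002706, was lower in hypoxia on every array than on any normoxia array. Its log2 level was 0.46, 0.33, 0.59 and 0.32 on normoxia 1 to 4. It was 0.27, -0.59, -0.24 and -0.64 on hypoxia 1 to 4. The normoxia arrays lay close together and the hypoxia arrays were spread, with hypoxia 1 just under the lowest normoxia array and hypoxia 2 and 4 far below it. The means were 0.42 ± 0.13 (SD, n = 4) in normoxia and -0.30 ± 0.42 (SD, n = 4) in hypoxia, a log2 difference of -0.72 with a standard error (SE) of 0.27. Groups that did not overlap, with hypoxia lower, were found for 106 of 10879 features (0.974%), a feature being a named gene, represented by its brightest probe, or a probe without a name. FCER1G is 1 of these by its selection.

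The second FCER1G probe, A_70_P002707, gave a smaller difference. Its log2 level was -0.0044, 0.058, -0.25 and 0.013 on normoxia 1 to 4, and 0.020, -0.52, -0.43 and -0.68 on hypoxia 1 to 4. Here hypoxia 1 lay among the normoxia arrays, so the groups overlapped, while the other 3 hypoxia arrays were below all 4 normoxia arrays. The means were -0.046 ± 0.14 (SD, n = 4) and -0.40 ± 0.30 (SD, n = 4), and the difference was -0.36. Over the 8 arrays the 2 probes of the gene correlated with a Pearson r of 0.86.

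**Figure D1:**
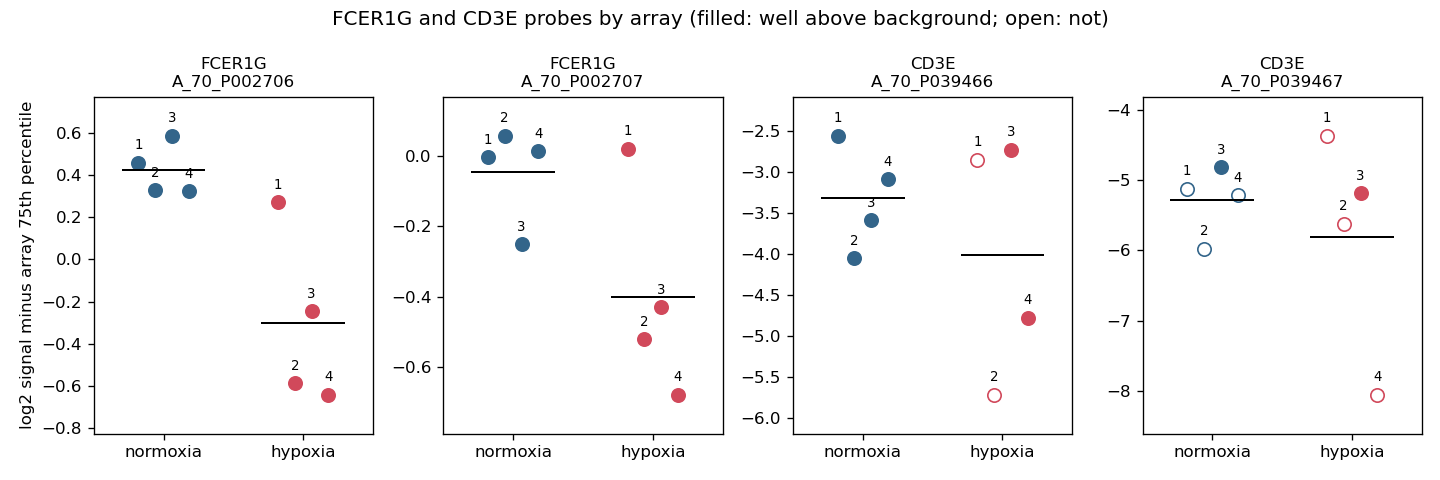
Log2 signal minus the array's 75th percentile (vertical axis, a separate scale in each panel) for the 4 probes on 4 normoxia and 4 hypoxia arrays, with replicate numbers, group means as lines, and open points where a probe was not well above background. FCER1G probe A_70_P002706 runs from 0.32 to 0.59 in normoxia and from -0.64 to 0.27 in hypoxia, while the groups of the other 3 probes overlap.

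The brighter CD3E probe, A_70_P039466, had a mean difference of about the same size with a much wider spread. Its log2 level was -2.55, -4.05, -3.59 and -3.09 on normoxia 1 to 4, where it was always well above background. It was -2.85, -5.71, -2.72 and -4.77 on hypoxia 1 to 4, and on hypoxia 1 and 2 it was not well above background. The groups overlapped: hypoxia 1 and 3 lay between the 2 brightest normoxia arrays, and hypoxia 2 and 4 were dimmer than all 4 normoxia arrays. The lowest level of any probe with the flag differed between arrays, at -3.70 on hypoxia 1 and -6.83 on hypoxia 4. Hypoxia 1, without the flag for CD3E, stood above hypoxia 4, which had it. The order of the arrays for so dim a probe therefore cannot be read as an order in the amount of CD3E. The means were -3.32 ± 0.64 (SD, n = 4) and -4.01 ± 1.47 (SD, n = 4), a log2 difference of -0.70 (SE 0.72). Leaving out hypoxia 2 brought this difference to -0.13, leaving out hypoxia 4 to -0.44 and leaving out normoxia 1 to -0.44. It was -1.08 without hypoxia 1 and -1.13 without hypoxia 3.

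The second CD3E probe, A_70_P039467, was at the limit of detection. Its signal cleared the background flag on normoxia 3 and hypoxia 3 and on no other array. Its log2 level was -5.12, -5.98, -4.81 and -5.21 on normoxia 1 to 4, and -4.37, -5.62, -5.19 and -8.05 on hypoxia 1 to 4. The groups overlapped, and the mean difference of -0.53 rested on hypoxia 4, since the other 3 hypoxia arrays were all brighter than the dimmest normoxia array. On normoxia 1 and hypoxia 4 the software had put a surrogate value in place of the measured signal. The 2 CD3E probes correlated with an r of 0.58 over the 8 arrays.

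How far arrays lay from their group mean correlated at 0.82, 0.72, 0.58 and 0.43 between arrays numbered 1, 2, 3 and 4. Normoxia 2 with hypoxia 4, of different numbers, reached 0.80, and no label explains the numbers. The differences were also taken within pairs of the same number. FCER1G probe A_70_P002706 was lower in hypoxia in 4 of 4 such pairs, by log2 differences of -0.19, -0.91, -0.83 and -0.96 for numbers 1 to 4. That held for 1152 of 10879 features (10.6%). The groups of this probe did not overlap, so any pairing of the arrays would give 4 of 4. The second FCER1G probe gave 0.025, -0.58, -0.18 and -0.69. For CD3E probe A_70_P039466 the pairs gave -0.29, -1.67, 0.86 and -1.69, so number 3 went the other way. For the dim CD3E probe they gave 0.75, 0.36, -0.37 and -2.84.

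Slides hold several arrays, and the file headers place both groups on 2 of the 3 slides. Within slide 1, which held normoxia 1 and hypoxia 1 to 3, FCER1G differed by -0.64 and CD3E by -1.21. Within slide 2, which held normoxia 2 and hypoxia 4, FCER1G differed by -0.97 and CD3E by -0.73. With slide as a block the difference was -0.77 (SE 0.38) for FCER1G and -1.01 (SE 0.92) for CD3E. Normoxia 3 and 4, alone on slide 3, could not enter a comparison within a slide. The brighter probes of both genes were thus lower in hypoxia on each slide that held both groups, as was the second FCER1G probe. For the brighter FCER1G probe this sign was fixed beforehand, because its groups did not overlap. The dim second CD3E probe differed by 0.063 within slide 1 and by -2.08 within slide 2.

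Under other ways of scaling the arrays FCER1G and CD3E stayed lower in hypoxia. The FCER1G difference ran from -0.60 with normexp background correction to -0.90 with scaling to the array median. The latter setting put the median of all features at -0.20 and normexp put it at -0.31, against -0.022 in the values reported here. With normexp both genes thus lay closer to the median of all features than in the values reported here. The CD3E difference ran from -0.64 with quantile normalization to -0.87 with the array median. It reached -1.43 with array weights, which rate each array by how closely its features follow the group means. The largest weight, 3.61, went to hypoxia 2, where the brighter CD3E probe was not well above background. In the authors' deposited table, which gives each signal as a ratio, FCER1G probe A_70_P002706 was at 1.38, 1.26, 1.51 and 1.24 on normoxia 1 to 4 and at 1.21, 0.671, 0.848 and 0.646 on hypoxia 1 to 4. In the same authors' deposited table CD3E probe A_70_P039466 was at 0.171, 0.061, 0.084 and 0.116 on normoxia 1 to 4, and at 0.139, 0.019, 0.152 and 0.037 on hypoxia 1 to 4. The FCER1G groups did not overlap in that table, and the CD3E groups did.

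**Figure D2:**
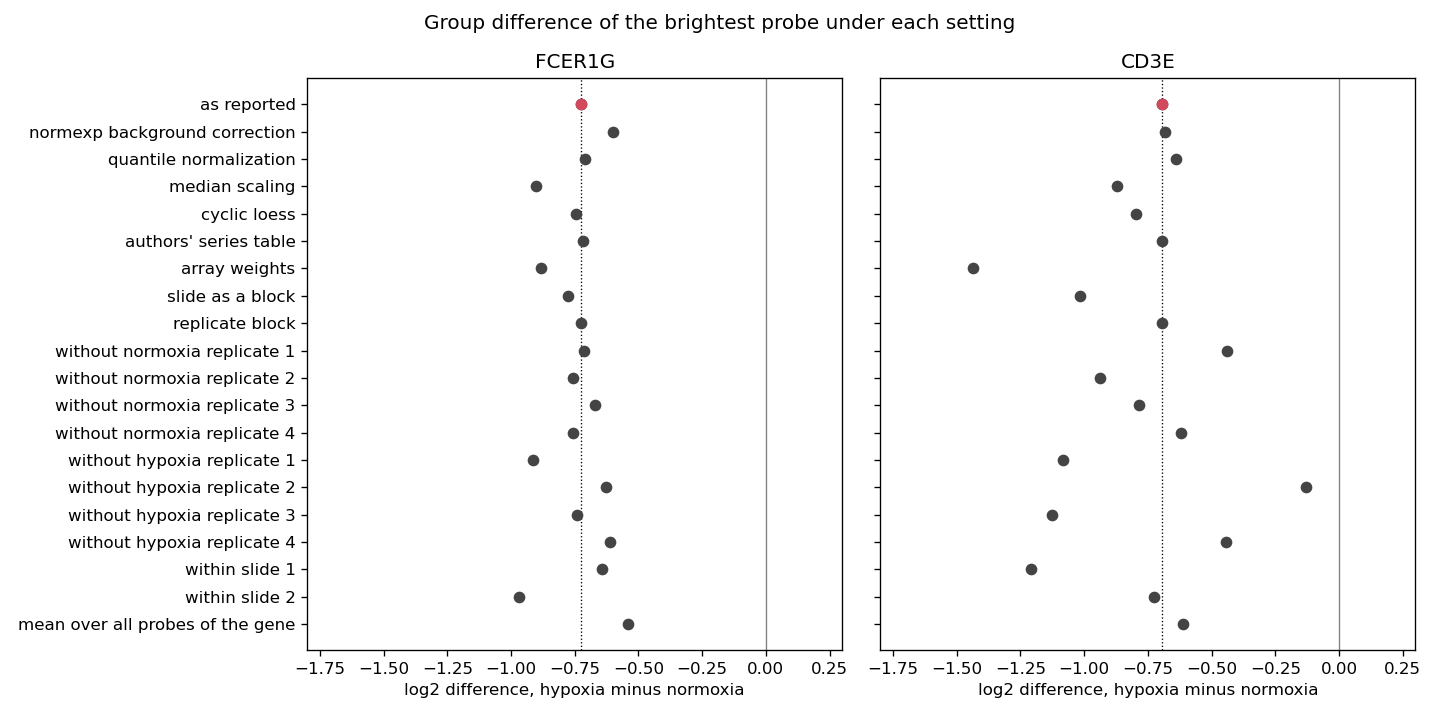
Log2 difference, hypoxia minus normoxia, of FCER1G (left) and CD3E (right), by the brighter probe, under each setting listed on the vertical axis. The bottom row takes the mean of both probes instead, which gives -0.54 for FCER1G; the brighter FCER1G probe alone lies between -0.60 and -0.97, while CD3E runs from -0.13 without hypoxia 2 to -1.43 with array weights.

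The size of the difference can be read against the rest of the array. Of 10879 features, 736 (6.77%) had a log2 difference at or below that of FCER1G, and 5632 (51.8%) were below 0. With limma and Benjamini-Hochberg adjustment over all features, 0 passed an adjusted p of 0.05 (0% of features), the smallest adjusted p being 0.998, and 396 (3.64%) had an unadjusted p under 0.05. So no feature named here passed, and the words lower and higher below give the sign of a difference and no more.

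The myeloid and the T cell gene had mean differences of like size. Both genes were selected on this difference, so the likeness is a description and no test. The log2 ratio of FCER1G to CD3E on each array differed between hypoxia and normoxia by -0.028 (SE 0.66), and an error this wide leaves room for a sizeable unequal change in either direction. Over the 8 arrays the brighter probes of the 2 genes correlated with an r of 0.67, and the differences between groups are part of this value.

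Partners of FCER1G were taken from a list of Fc receptor chains, lectin receptors and signalling genes, of which 7 had a probe and 5 were kept. Of these 5, 3 were lower in hypoxia and 2 higher, with a median difference of -0.11 against -0.022 over all features. FCER1A, the IgE-binding chain that pairs with FCER1G on mast cells and basophils, differed by 0.17 (SE 1.35) and had the detection flag on 2 arrays a group. MS4A2, the beta chain of the same receptor, was detected on 1 array of each group and was not kept. The adaptor was thus measured on every array, and the 2 chains particular to the IgE receptor on 4 arrays or fewer. The lectin receptors CLEC6A and CLEC7A, the first of which signals through FCER1G, differed by -0.11 and 0.11, each detected on 4 arrays.

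TYROBP, also known as DAP12, is a sister adaptor of FCER1G with the same kind of activation motif, and is used by myeloid and natural killer cells. Its log2 level was -0.28, -1.07, -1.75 and -0.83 on normoxia 1 to 4, and -0.37, -1.42, -1.45 and -1.52 on hypoxia 1 to 4. The groups overlapped, with both arrays of number 1 bright and normoxia 3 the dimmest of all 8. The difference was -0.21 (SE 0.41), and a second probe gave -0.13. TYROBP turned to 0.026 without normoxia 1. FCGRT, the neonatal Fc receptor, which protects IgG from breakdown and does not use FCER1G, was well above background on all arrays and differed by -0.47 (SE 0.28). The count of 3 lower genes in this list was 5 with normexp, median scaling or slide as a block, and 1 without normoxia 1.

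CD3E works in a complex with CD3D, CD3G and CD247. CD3D, the delta chain, differed by -0.14 (SE 1.33) and was detected on 2 arrays of each group. CD3G, the gamma chain, differed by 0.27 (SE 1.60) and was detected on 2 normoxia and 3 hypoxia arrays. CD247, the zeta chain that carries most of the activation motifs, differed by 0.28 (SE 0.99), and its second probe by 0.36. It was detected on 3 normoxia and 4 hypoxia arrays, more than the other chains. CD3E was thus lower in the mean while CD3G and CD247 were higher, but each difference was smaller than its SE. With normexp or with slide as a block all 3 partner chains were lower. Single arrays also turned the signs: without hypoxia 2, CD3D was at 0.60, without hypoxia 1, CD3G was at -0.76, and without normoxia 4, CD247 was at -0.48.

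The wider list of T cell receptor and signalling genes had 14 members with a probe and 11 kept. Of these, 6 were lower and 5 higher, with a median difference of -0.015, close to the -0.022 over all features. CD4, the coreceptor of helper T cells, differed by -0.015, and CD28, the main costimulatory receptor, by -0.67 (SE 1.45), each detected on 2 arrays of each group. GATA3, a transcription factor of T cells that other tissues also express, was well above background on every array and differed by 0.24 (SE 0.48), which turned to -0.32 with normexp and to -0.050 with quantile normalization. The count of lower genes moved from 6 to 11 with normexp or slide as a block, and to 0 without normoxia 1 or without hypoxia 4. It was 4 in the authors' deposited table, 3 without normoxia 3, 2 without hypoxia 2, and 10 without normoxia 2, normoxia 4 or hypoxia 1.

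Antigen receptor chains were reached through probe descriptions. The single probe described as T cell receptor alpha, A_70_P016851, was well above background on all 8 arrays and is singled out here after its values were seen. Its log2 level was -2.14, -2.13, -1.94 and -1.17 on normoxia 1 to 4, and -2.44, -2.92, -2.86 and -3.66 on hypoxia 1 to 4. Every hypoxia array was below every normoxia array, which was so for 0.974% of all features. Among the kept probes for antigen receptor chains and MHC, it was the only 1 for which this held. The means were -1.84 ± 0.46 (SD, n = 4) and -2.97 ± 0.50 (SD, n = 4), a difference of -1.13 (SE 0.36). It was -0.60 within slide 1 and -1.53 within slide 2, and ran from -1.30 to -0.90 when single arrays were left out. Against this probe, CD3E changed by 0.43 (SE 0.73) and FCER1G by 0.40 (SE 0.30). The sign of both follows from the larger difference of a probe singled out after its values were seen.

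The other receptor chains were dim. Of 16 probes for T cell receptor beta 6 were kept, all 6 lower in hypoxia, with a median of -0.47, and this turned to 0.36 without normoxia 1, to 0.34 without hypoxia 4 and to 0.19 without hypoxia 2. Of 9 kept delta probes 3 were lower and 6 higher. For the gamma chain, 2 of 3 kept probes were lower, and the probe detected on all arrays, A_70_P006881, differed by 0.28 (SE 0.58). These are the chains of gamma delta T cells, which are abundant in young ruminants, and their signs moved with the setting. All 9 delta and all 3 gamma probes were lower under normexp, and again when slide was a block, and 1 of 9 delta probes was lower without normoxia 1, hypoxia 2 or hypoxia 4. Without hypoxia 1, 8 of the 9 were lower, and 7 were without normoxia 2, 6 without normoxia 4 and 5 without hypoxia 3. Without hypoxia 4, 1 of 3 gamma probes was lower. Probes of one chain share sequence and are not independent.

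Probes for MHC class II, which macrophages and other antigen-presenting cells use to show peptides to T cells, were lower in hypoxia for 8 of 8 kept, with a median of -0.63. Of the 7 that stood in the fit, 4 were lower without hypoxia 4. Immunoglobulin chain probes, of B cells, were lower for 30 of 34 kept, with a median of -0.84, while 51.8% of all features were lower. That median turned to 0.12 without hypoxia 4 and to 0.021 without normoxia 1. Of the 91 probes of this class, 45, 5, 67 and 20 were well above background on normoxia 1 to 4. On hypoxia 1 to 4 it was 34, 4, 81 and 4, so most were not well above background on hypoxia 2 and 4. MHC class I probes, whose genes nearly all cells express, were higher for 12 of 15 kept, with a median of 0.42. Of the 13 of these in the fit, 2 were lower, and 7 were with slide as a block, where the median was -0.024. It was 0.060 with normexp, 0.12 without hypoxia 2 and 0.77 without hypoxia 4.

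Detection of the T cell probes differed more between arrays than between groups. T cell receptor beta probes were well above background at 6, 1, 13 and 2 of 16 on normoxia 1 to 4, and at 5, 1, 15 and 0 of 16 on hypoxia 1 to 4. The arrays numbered 1 and 3 detected them in both groups and those numbered 2 and 4 scarcely at all. The brighter CD3E probe was missed on hypoxia 1 and 2, 1 array of each kind, and FCER1G was detected throughout.

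**Figure D3:**
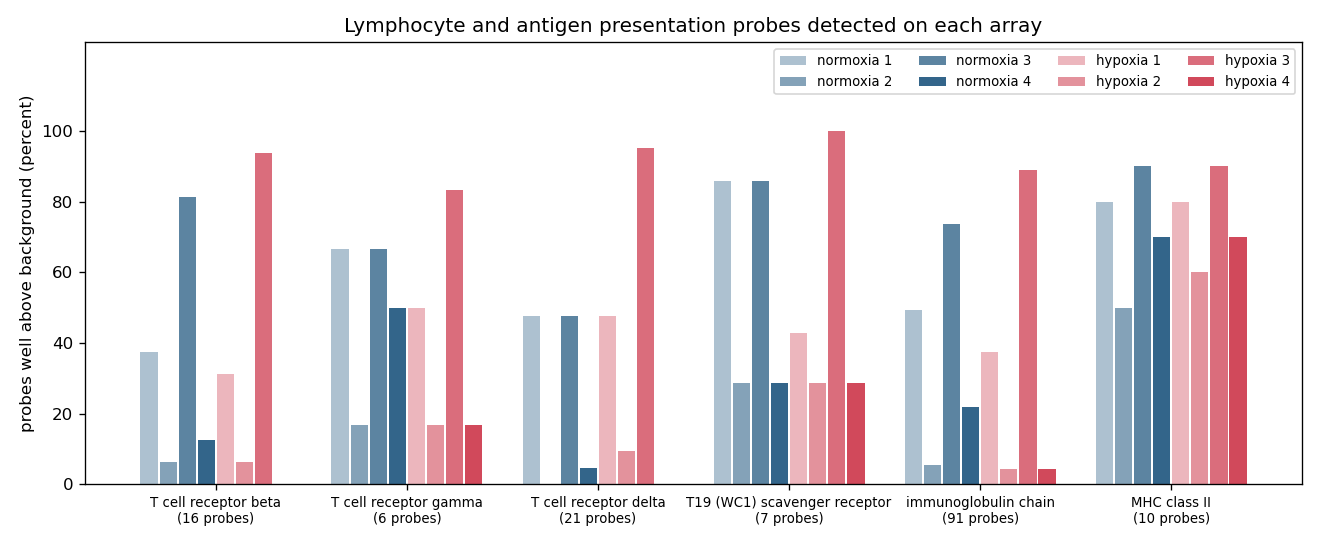
Percent of the probes of each class (horizontal axis) that were well above background on each of 4 normoxia arrays (blue) and 4 hypoxia arrays (red). In both groups the third array detected the most T cell receptor beta probes, with 13 of 16 in normoxia and 15 of 16 in hypoxia, and the arrays numbered 2 and 4 detected between 0 and 2.

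Among genes of macrophages and monocytes, cells that use FCER1G, 13 had a probe and 11 were kept. Of these 11, 8 were lower in hypoxia and 3 higher, while 51.8% of all features were lower. The median difference of the 11 was -0.33. ALOX5AP, which presents arachidonic acid to 5-lipoxygenase for leukotriene synthesis, was the only 1 of the 11 whose groups did not overlap, against 0.974% of all features with hypoxia lower. It differed by -1.15 (SE 0.27). Its second probe differed by -1.29, but there normoxia 1 lay within the hypoxia range and the groups overlapped. CTSS, the lysosomal protease cathepsin S, differed by -0.46 (SE 0.39), LGMN, the protease legumain, by -0.42 (SE 0.29) and CYBB, the catalytic subunit of the phagocyte oxidase, by -0.57 (SE 0.82). CD14, a monocyte receptor for bacterial lipopolysaccharide, differed by -0.075, TLR4, which acts with it, by 0.26, and CEBPB, a transcription factor, by 0.30. The probes of some genes disagreed in sign: LYZ, lysozyme, was at -0.87 and 0.53, TLR4 at 0.26 and -0.40, CD14 at -0.075 and 0.085, and SLC11A1, a metal transporter of phagosomes, at 0.12 and -0.21. Without hypoxia 4, 5 of the 11 genes were lower and the median turned to 0.24. The median was -0.051 without normoxia 1 and -0.067 without normoxia 3.

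Genes shared by many leukocytes gave 4 lower of 5 kept, with a median of -0.27, and 1 lower without normoxia 1 and 2 lower without hypoxia 4. ITGB2, the beta chain of the leukocyte integrins, held on myeloid and T cells alike, had a log2 level of -2.06, -1.996, -0.83 and -1.68 on normoxia 1 to 4. It was -2.06, -3.23, -1.698 and -3.37 on hypoxia 1 to 4. Hypoxia 2 and 4 were the dimmest arrays, as they were for FCER1G and CD3E, while hypoxia 1 and 3 lay within the normoxia range or at its edge. The difference was -0.95 (SE 0.48), and -0.88 in a second probe. CXCR4, a chemokine receptor, differed by 0.18, and ITGAL, the alpha chain that pairs with ITGB2 on lymphocytes, by -0.27. For this list and the next, 51.8% of all features were lower. Adhesion molecules and chemokines, which draw leukocytes to a vessel, were lower for 9 of 12 kept genes, with a median of -0.27. That count fell to 2 without normoxia 1 and to 3 without hypoxia 4.

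**Figure D4:**
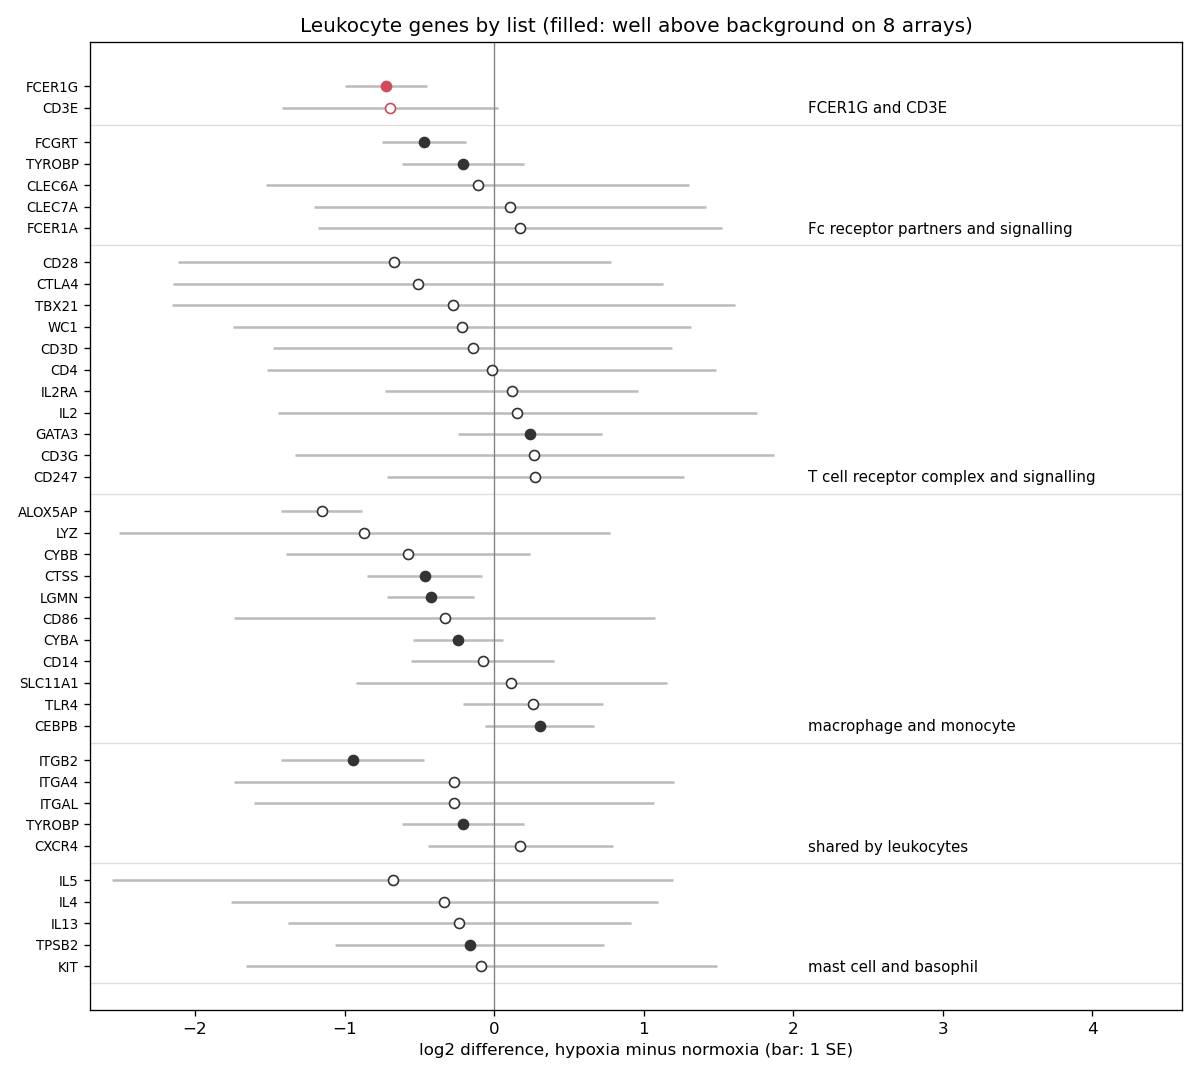
Log2 difference, hypoxia minus normoxia (points), with 1 SE on each side (bars), for FCER1G, CD3E and the kept genes of 5 leukocyte lists, with filled points for genes well above background on all 8 arrays. FCER1G at -0.72 and ALOX5AP at -1.15 have short bars, whereas CD3E at -0.70 and most T cell genes have bars that reach past 0.

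The dimmest genes have the widest errors, so the genes detected everywhere were also taken alone. In the Fc receptor, T cell, macrophage and shared leukocyte lists, the 8 genes well above background on all arrays were FCGRT, TYROBP, GATA3, CTSS, CYBA, LGMN, CEBPB and ITGB2. Of them 6 were lower in hypoxia, with a median of -0.33, while 53% of the 7265 features detected as widely were lower, with a median of -0.034. The number lower was 5 to 7 across the settings, and the median was -0.066 with slide as a block. The samples are whole artery, and which cells carried the signal of these 8 genes was not tested. FCER1G, at -0.72, was below 7 of these 8 genes, and ITGB2, at -0.95, was below it. FCER1G was selected on this same difference, so its place among them is a description and no test. Other leukocyte lists, not counted here, also held genes detected on all arrays, of either sign: CCL25 at -0.43, TPSB2 at -0.16, XBP1, a factor of plasma cells and secretory cells, at 0.28 and ICAM1, an adhesion molecule of endothelium, at 0.43.

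Cells that surround or fill an artery could also carry FCER1G or CD3E into the sample, so their marker lists were measured beside them. The counts below stand beside 51.8% of all features that were lower. Mast cell and basophil genes were lower for 5 of 5 kept, with a median of -0.23, and TPSB2, a mast cell tryptase, differed by -0.16 (SE 0.90). This count fell to 0 without normoxia 1 or without hypoxia 4, and to 1 without hypoxia 2. Thymus genes were lower for 2 of 2, with CD1D at -0.036 and CCL25 at -0.43, and for 0 of 2 without normoxia 1. CD1B, a marker of cortical thymocytes, was below background on every array. Natural killer and neutrophil lists had 1 kept gene each, the lymph node and B cell lists 2, and the count of lower genes changed with the scaling in all 4 lists. It was 1 of 3 for erythroid genes, which mark blood in the sample, and 2 of 3 with normexp, quantile, median or cyclic loess scaling. Adipocyte genes were lower for 5 of 5, with a median of -0.55, and for 1 of 5 without hypoxia 4. Skeletal muscle genes were lower for 4 of 5, with a median of -0.45, and for 1 of 5 without hypoxia 4. Smooth muscle genes, the main tissue of the wall, were lower for 3 of 3 with a median of -0.60, which was -0.12 without normoxia 4. Without hypoxia 1, 2 of these 3 genes were lower, with a median of -0.098. With slide as a block 2 of these 3 genes were lower, with a median of -0.037. Their members MYL6 and CNN1 were well above background on all 8 arrays, so muscle of the labelled artery was present in each sample. The other wall lists had positive medians in the values reported here. Endothelial genes were higher for 4 of 5, with a median of 0.81 and with NOS3, the endothelial nitric oxide synthase, at 1.12 (SE 0.58) and KDR, a VEGF receptor, at 0.81 (SE 0.59), but the median was -0.32 with normexp and 0.36 without normoxia 4. Adventitial fibroblast genes were higher for 3 of 4, with a median of 0.90 and with COL3A1, a fibrillar collagen, at 1.80 (SE 0.81) and DCN, the proteoglycan decorin, at -0.15 (SE 0.75). That median was 0.21 with normexp, where 2 of 4 were higher, and 0.49 without hypoxia 3. Whether these shifts in wall markers bear on FCER1G and CD3E was not tested.

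These lists varied more between arrays than between groups. The mean log2 level of the 5 adipocyte genes, each relative to its mean over all arrays, ran from -1.54 to 1.88 in normoxia and from -2.71 to 1.83 in hypoxia. For the 11 T cell genes it ran from -1.87 to 2.35 and from -2.60 to 2.15, and for the 11 macrophage genes from -0.61 to 0.76 and from -1.17 to 0.54. In all 3 lists hypoxia 4 was the lowest array, and normoxia 2 was the lowest of its group. What part this plays in the differences of FCER1G and CD3E was not tested.

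The first principal component of all features held 69.6% of the variance and separated the arrays numbered 1 and 3 from those numbered 2 and 4. CD3E followed it with an r of 0.81 over the 8 arrays, and 24.6% of features had a higher r. FCER1G followed it with an r of 0.52, and 38.5% of features had a higher r. CD4, CD28 and CD3D, each detected on 4 arrays, stood at 0.99, 0.98 and 0.97. CD247, detected on 7 arrays, stood at 0.80 and GATA3, detected on all 8, at 0.70. T cell receptor alpha was at 0.27 and ALOX5AP at -0.014. On the hypoxia arrays FCER1G followed the order of the component, from 0.27 on hypoxia 1 at a score of 110.1 to -0.64 on hypoxia 4 at -123.1. On the normoxia arrays it lay between 0.32 and 0.59 over scores from -98.9 to 116.3. The part of this component in the FCER1G and CD3E differences was not tested.

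**Figure D5:**
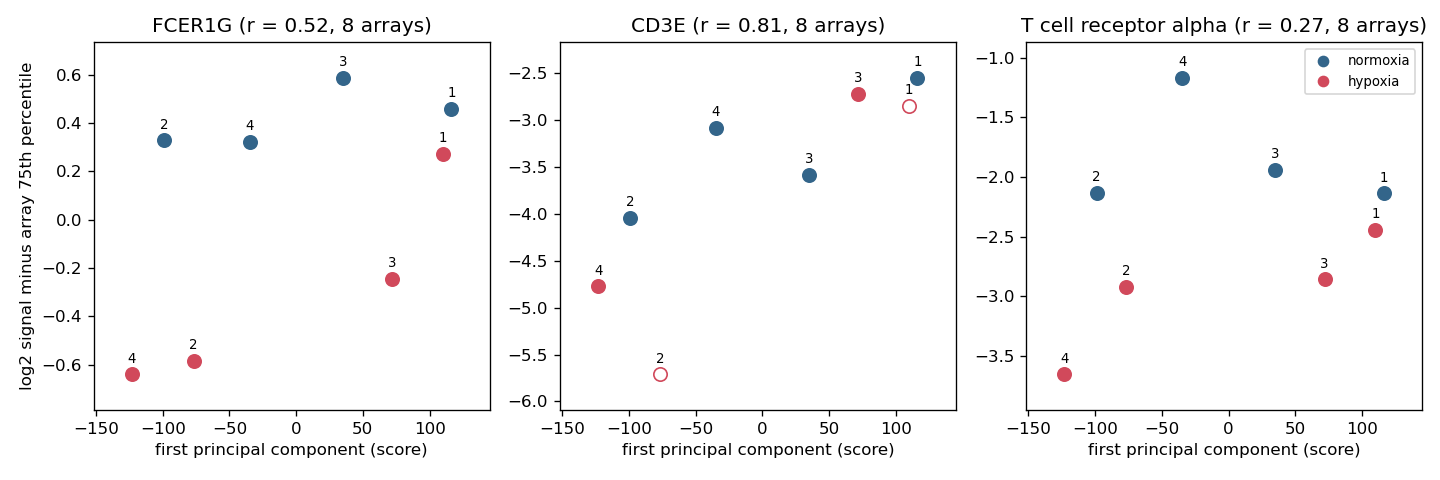
Log2 signal minus the array's 75th percentile (vertical axes, separate scales) against the score of each array on the first principal component, for FCER1G, CD3E and T cell receptor alpha on 4 normoxia and 4 hypoxia arrays, with open points where a probe was not well above background. The correlations over 8 arrays are 0.52, 0.81 and 0.27. All 4 hypoxia points lie below the 4 normoxia points for FCER1G and for T cell receptor alpha, and the CD3E points overlap.

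The named genes whose profile over the 8 arrays was most like that of FCER1G, out of 626, were ITGB2 with an r of 0.83, TKDP5, a trophoblast Kunitz domain protein, with 0.82, GRIA1, a glutamate receptor subunit, with 0.81, BMAL1, a circadian clock factor, with 0.81, and ACVR2A, an activin receptor, with 0.80. ITGB2 was the only one of the 5 on a leukocyte list, and ALOX5AP came sixth with 0.80. Those most like CD3E were LALBA, a milk protein, with 0.95, SP-D, a lung surfactant protein, with 0.95, NAMPT, an enzyme of NAD synthesis, with 0.95, CLDN2, a tight junction protein, with 0.94, and TNMD, a tendon protein, with 0.94. None of these 5 is on a leukocyte list, and the highest T cell gene, TBX21, stood at 0.86 and CD28 also at 0.86. All these values share the same 8 arrays and their scaling, and the differences between groups are part of them.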

How the data were processed

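The authors read their one-colour Agilent arrays (design 019921) with Feature Extraction 9.5.3.1; per the file headers, the protocol was GE1-v5_95_Feb07. The deposited spot intensity is on a linear scale, background-subtracted by that software and not scaled between arrays, per the file headers. The deposited flags, coded 0 or 1 per the file headers, mark spots well above background or outlying. The authors' deposited series table holds a ratio that, from its values, is the intensity over the array's 75th percentile, with a floor of 0.01. Its column medians were 0.328, 0.132, 0.228 and 0.137 on the normoxia arrays in order of number, then 0.326, 0.158, 0.308 and 0.141 on those of hypoxia. After log2 it correlated with the scanner values at 0.9948 or more on each array, and the reason for its scale is not given in the sources used here.

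Of 15744 spots an array, 536 controls were left out, as were outlying spots and 72 probes with a missing value. FCER1G and CD3E have 1 spot a probe. Log2 intensities were averaged per probe, and the array's 75th percentile over the 15008 probes was subtracted. Array brightness varied, with that percentile between 97.9 and 1387 intensity units and 59.7% to 94.8% of probes well above background. The number of arrays limits the precision. Probes well above background on at least 4 arrays were kept, and the brightest stood for its gene. Names were had for 1433 probes, from the files and from RefSeq genes of assembly ARS-UI_Ramb_v3.0, used for names only; 239 of these are names from the files without a match. Groups follow the maternal treatment in the labels. Files were read by data.table (version 1.17.8) in R 4.3.3. The limma package (3.58.1) fitted the groups by lmFit and eBayes, and p-values were adjusted by Benjamini-Hochberg over 10879 features. The procedure was tested on simulated data.

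Pairing was checked by correlating, over features, how far each array lay from its group mean. The correlation was 0.819, 0.724, 0.583 and 0.433 between arrays numbered 1, 2, 3 and 4, which was read as a pairing. It rests on these values alone, as no label explains the numbers, and normoxia 2 with hypoxia 4, of 1 slide, reached 0.801.

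The genes, the 20 marker lists and the settings were chosen with earlier results of these data known. Named genes are FCER1G and CD3E, any measured gene of the Fc receptor, T cell, macrophage and shared leukocyte lists, the 2 brightest of each other list, and the 5 named genes most like each of FCER1G and CD3E; others are said to be singled out. The thyroid and nerve lists gave no kept gene. Alternatives covered background correction, scaling, the authors' table, the filter, array weights, slide and replicate blocks, each array left out, and the mean over probes.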

Additional observations from a re-analysis of the deposited data

Results flagged for a closer look

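Of 70 groups of 4 arrays checked, for the 4 probes and the kept leukocyte genes, 2 held an array far from the other 3, and chance gives about 1 in 20. TYROBP, the sister adaptor of FCER1G, was at a log2 level of -0.37 on hypoxia 1, with the nearest other hypoxia array at -1.42. IL2RA, a chain of the interleukin 2 receptor, was at -2.04 on normoxia 1, with the nearest other normoxia array at -4.53. None of the 4 probes of FCER1G and CD3E had such an array.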

How the results depend on the processing

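The brighter probes of FCER1G and CD3E stayed lower in hypoxia under each background correction, scaling, weighting, block, slide and left-out array; the filters on dim probes were run for feature counts alone, and CD3E does not pass the stricter one. In every setting with a feature count, limma gave 0 features at an adjusted p of 0.05, with 23 (normexp) to 1316 (array weights) at an unadjusted p under 0.05. When single arrays were left out, FCER1G ran from -0.91 to -0.61 and CD3E from -1.13 to -0.13. Because the FCER1G groups did not overlap, its sign within slides, within pairs and with an array left out was fixed beforehand. With the replicate block, which uses the pairing by number, FCER1G was at -0.72 (SE 0.22) and CD3E at -0.70 (SE 0.49), with 1303 features at an unadjusted p under 0.05, and the block changed no call. With the mean over both probes FCER1G was at -0.54 and CD3E at -0.61. The second CD3E probe, chosen for these checks after its values were seen, ran from -0.91 with normexp to -0.18 in the authors' table, and the second FCER1G probe from -0.53 to -0.34. The settings for the marker lists, probe classes and T cell receptor alpha were likewise added after seeing the data. Without a filter on dim probes, 14339 features were tested, and 7266 when detection on all arrays was required. Signal over background limits CD3E most: the brighter probe was missed on 2 hypoxia arrays, so its level there lies near the background of the array. With 4 arrays a group, these values cannot separate a change in CD3E from the spread between fetuses.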
